A study of Mus musculus with 8 samples.

Results

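Amino acid transporters of the plasma membrane and the lysosome were examined in brown adipose tissue (BAT) of obese mice. They were taken as the protein-coding genes of 5 solute carrier families, Slc1, Slc3, Slc7, Slc38 and Slc43. Symbols came from the GENCODE annotation of the mouse genome GRCm38. The rule itself used no measured value, but it was chosen with earlier results of these data known. The rule gave 38 of the 44674 genes in the tables, with 7 members in Slc1, 2 in Slc3, 15 in Slc7, 11 in Slc38 and 3 in Slc43. BAT mRNA was sequenced in 4 control mice and 4 Ox1RΔSERT mice, which lack orexin receptor 1 in cells that express the serotonin transporter, and the design asks how that loss alters BAT gene expression. Control mice were Ox1R fl/fl, Sert-Cre wt/wt littermates and Ox1RΔSERT mice were Ox1R fl/fl, Sert-Cre tg/wt, so that both groups carried the floxed alleles and only one carried the Cre transgene. The Cre is driven by the serotonin transporter gene Slc6a4, and its activity has also been seen outside the raphe, in the cingulate cortex and the thalamus. All were male, were fed a high-fat diet from week 4 to week 18 of age and were killed at the end of a hyperinsulinemic-euglycemic clamp, so that every value below comes from insulin-infused animals.

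Amino acids cross membranes on carriers that differ in substrate and in driving force. Slc1 and Slc38 proteins mostly couple uptake to sodium, most Slc7 proteins are exchangers, and many of these light chains reach the surface only when joined by a disulfide bond to a heavy chain of the Slc3 family. In brown fat, glutamine, glutamate and branched-chain amino acids taken up by such carriers are known to serve as fuel and as building blocks, and amino acids in the lysosome are sensed by the growth-regulating kinase mTORC1.

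Several Slc7 and Slc38 genes are known targets of the amino acid stress factor ATF4 or of the antioxidant factor Nrf2, so the 250 bases before each transcription start (RefSeq, GRCm38.p6) were read for both binding motifs. The promoter table held 28 of the 38 members, in 39 promoters. *Slc7a13*, *Slc1a5*, *Slc7a12*, *Slc7a3*, *Slc38a1*, *Slc7a5*, *Slc43a3*, *Slc7a4*, *Slc38a3* and *Slc7a2* were not matched. On either strand, the ATF4 response element TGATGNAA stood in 3 member promoters, of *Slc7a11* and *Slc7a7*, and in 3.45% of all 32851 promoters. The antioxidant response element TGACNNNGC stood in 4 member promoters (10.3%), of *Slc38a2*, *Slc43a1*, *Slc7a1* and *Slc7a6*, against 10.2% of all promoters, and no member promoter held both motifs. The 3 promoters printed here belong to members described below with unadjusted p-values under 0.05, and run 5′ to 3′ along the gene with the motif matches in capitals. The *Slc7a11* promoter (chr3:50443614-50443863, minus strand) held the ATF4 element on both strands, starting 66 and 47 bases before the start. The printed *Slc7a7* promoter (chr14:54417945-54418194, minus strand) held it 141 bases before the start. A second *Slc7a7* promoter (chr14:54417703-54417952) held it 243 bases before the start. That of *Slc7a1* (chr5:148399905-148400154, minus strand) held the antioxidant element in reverse, 11 bases before the start. *Slc7a6*, which was lower and also had an unadjusted p under 0.05, held this element 68 bases before the start. The *Slc7a6* window and the second *Slc7a7* window reach into the GENCODE gene models, and neither is printed.
Slc7a11: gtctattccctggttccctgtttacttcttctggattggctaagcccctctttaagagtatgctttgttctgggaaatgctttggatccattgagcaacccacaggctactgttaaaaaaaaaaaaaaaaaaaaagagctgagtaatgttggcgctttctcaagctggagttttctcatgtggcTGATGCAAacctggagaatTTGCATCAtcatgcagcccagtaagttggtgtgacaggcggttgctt
Slc7a7: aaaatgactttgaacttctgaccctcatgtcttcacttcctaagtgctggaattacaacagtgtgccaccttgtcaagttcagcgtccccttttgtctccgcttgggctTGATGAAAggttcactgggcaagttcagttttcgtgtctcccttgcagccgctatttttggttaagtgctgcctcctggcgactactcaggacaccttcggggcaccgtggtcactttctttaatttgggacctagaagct
Slc7a1: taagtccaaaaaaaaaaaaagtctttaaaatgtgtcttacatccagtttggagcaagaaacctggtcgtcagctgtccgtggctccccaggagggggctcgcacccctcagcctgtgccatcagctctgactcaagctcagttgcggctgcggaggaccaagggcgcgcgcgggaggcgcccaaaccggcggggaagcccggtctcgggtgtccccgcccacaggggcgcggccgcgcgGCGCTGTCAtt
A match describes letters in these windows and not the binding of a factor.

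The tissue expressed each of the 13 brown adipocyte markers examined, with *Ucp1* at 1863 to 2638 TPM. The summed normalised counts of these markers (defined below) were 14650 to 15988 in control mice and 9570 to 14008 in Ox1RΔSERT mice, without overlap. They were lowest in mice 11601 and 11708 (10379 and 9570). On the TPM scale the direction was mixed. The median log2 fold change of all tested genes was itself shifted upward there, to 0.23 with log2(TPM + 1) and 0.32 with log2(TPM + 0.1). Mean TPM was lower in Ox1RΔSERT than in control mice for *Ucp1* (1972 and 2302), *Dio2*, *Ppargc1a*, *Cox7a1*, *Cox8b* and *Elovl3*. It was higher for *Fabp4* (7605 and 7464), *Cidea*, *Prdm16*, *Adipoq*, *Plin1*, *Slc36a2* and *P2rx5*. At an unadjusted p under 0.05 in edgeR, 4 of the 13 were lower (*Ucp1*, *Dio2*, *Cox7a1* and *Elovl3*) and 0 higher. Of all tested genes, 4.96% were lower and 10.2% higher at this threshold. *Elovl3* had an adjusted p of 0.0406 in DESeq2. Estimated counts summed to between 35852708 and 50063339 per mouse. Mitochondrial genes held 40% to 46.8% of them in control mice. In Ox1RΔSERT mice 11601, 11613 and 11708 they held 33.6%, 34% and 36.2%, below every control mouse, and in mouse 11243 they held 44.6%. *Hcrtr1*, which encodes Ox1R, lay at 0 to 0.159 normalised counts in BAT (CPM, counts relative to the TMM-scaled library total, used throughout unless TPM is named), so the deletion could not be checked in these libraries. Ox1RΔSERT mice 11601 and 11708 stood apart in macrophage markers, which summed to 960 and 766 in them, to 195 and 215 in the other Ox1RΔSERT mice and to 120 to 264 in control mice. For all 10 of these markers, mice 11601 and 11708 were the highest, as they were for 20.1% of all tested genes. Skeletal muscle markers summed to 1586 in control mouse 11253, 2221 in Ox1RΔSERT mouse 11708, 203 in mouse 11601 and 27.5 to 72.8 in the remaining mice. Hepatocyte markers summed to 964 in mouse 11708, 64.3 in mouse 11601 and 3.15 to 41.8 in the other 6. Mice 11601 and 11708 were the 2 highest for all 8 hepatocyte markers too. Of these markers, 7 were higher at an unadjusted p under 0.05 in edgeR, beside 10.2% of all tested genes. None of the defining macrophage, muscle or hepatocyte markers was at 0 in all mice. In whole tissue, fewer cells of a type and less RNA per cell cannot be told apart.

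Of the 38 members, 34 had at least 1 count in a mouse and 4 (*Slc1a6*, *Slc7a9*, *Slc7a12* and *Slc38a5*) were at 0 in all 8 mice, where 3 counts, the limit that a count of 0 allows, correspond to 0.0592 to 0.0951 normalised counts per library. Per length, as TPM, the length-scaled share of all transcripts, 7 members averaged over 10 TPM, 8 between 1 and 10 and 23 under 1, where the median of all tested genes was 3.88. The sodium-dependent glutamine carrier *Slc1a5* led with 91.2 TPM. It was followed by the system A carrier *Slc38a2* at 35.6, the heavy chain *Slc3a2* at 33.0, the light chain *Slc7a6* at 18.2, *Slc38a10* at 16.7, *Slc43a3* at 16.0 and the glutamate carrier *Slc1a3* at 13.8. *Slc1a5* alone made up between 20.5% and 53.2% of the summed member TPM of a mouse. The ranges of neighbours in this order mostly overlapped over mice, as for *Slc1a5* (44.0 to 167 TPM), *Slc38a2* (25.5 to 46.2) and *Slc3a2* (21.7 to 48.0). Within single mice, *Slc1a5* was above *Slc38a2* except in mouse 11563 (44.0 against 46.2 TPM). The lowest *Slc3a2* value lay just above the highest of *Slc7a6* (13.9 to 21.5 TPM). The *Slc7a6* range overlapped with those of *Slc38a10* (10.6 to 23.9), *Slc43a3* (10.6 to 28.9) and *Slc1a3* (8.88 to 19.2). Within each mouse, however, *Slc7a6* was above *Slc1a3*.

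**Figure D1:**
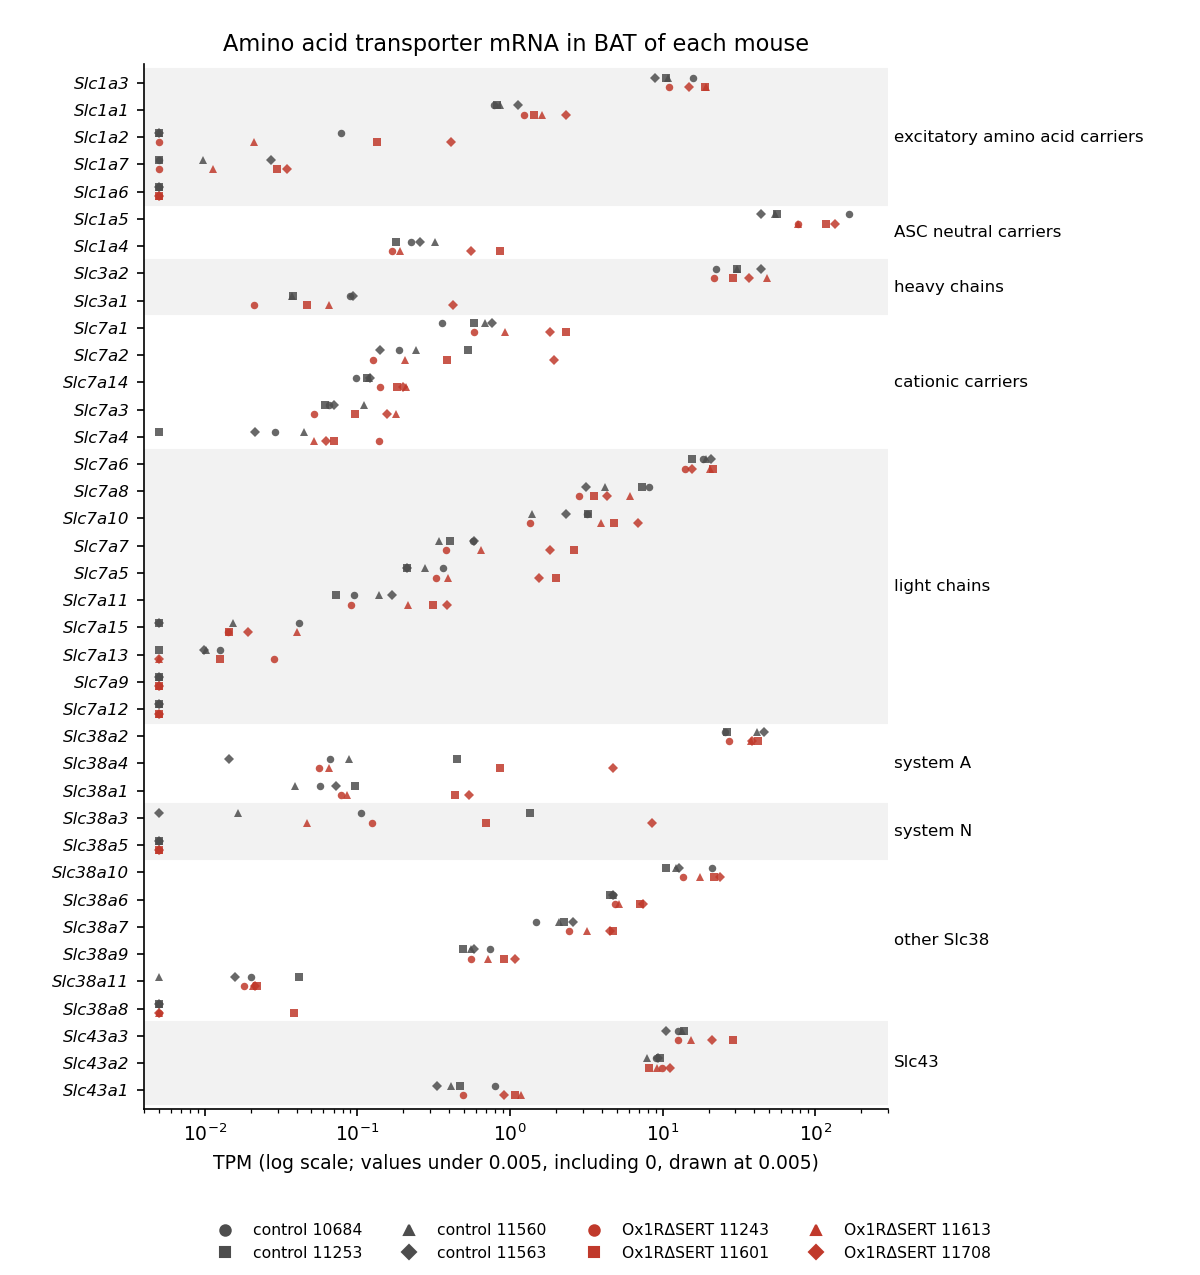
TPM of each of the 38 members (rows, grouped by role) in each mouse on a log axis, with control mice in grey and Ox1RΔSERT mice in red, and values under 0.005 drawn at 0.005. Within most roles 1 or 2 members lie far above the others, for example *Slc1a5* at 44.0 to 167 TPM against *Slc1a4* at 0.168 to 0.863.

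In the comparison of Ox1RΔSERT with control mice, 25 members had enough counts to be tested, and 13 did not. With Benjamini-Hochberg adjustment over all 14489 tested genes, no member reached 0.05 by the quasi-likelihood test of edgeR, where 0% of genes did. In DESeq2, which gave 26 members an adjusted p, no member did either, where 1.75% of 15119 genes passed, and none did in limma-voom. The lowest adjusted p of a member was 0.316 in edgeR and 0.0732 in DESeq2. At an unadjusted p under 0.05, 6 members were higher in Ox1RΔSERT mice (24% of those tested, against 10.2% of all tested genes) and 2 were lower (8%, against 4.96%). The 6 were *Slc1a1*, *Slc7a1*, *Slc7a5*, *Slc7a7*, *Slc7a11* and *Slc38a1*, and the 2 were *Slc7a6* and *Slc7a8*. Values of the groups did not overlap for 1 member, *Slc7a6*, which was lower (4%, against 2.81% of all tested genes), and for 0 members in the higher direction (against 2.69%). The median log2 fold change of the 25 members was 0.33 (quartiles 0.01 and 1.02), beside 0.00 over all tested genes, and 19 of them (76%) had a positive fold change, beside 50.4% of all tested genes. Mice 11601 and 11708 were the 2 highest of the 8 in 9 members (36%), beside 20.1% of all tested genes. Without these 2 mice the median was -0.07, with 1 member higher and 1 lower at an unadjusted p under 0.05. The share of all tested genes at this threshold was not counted without these 2 mice.

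**Figure D2:**
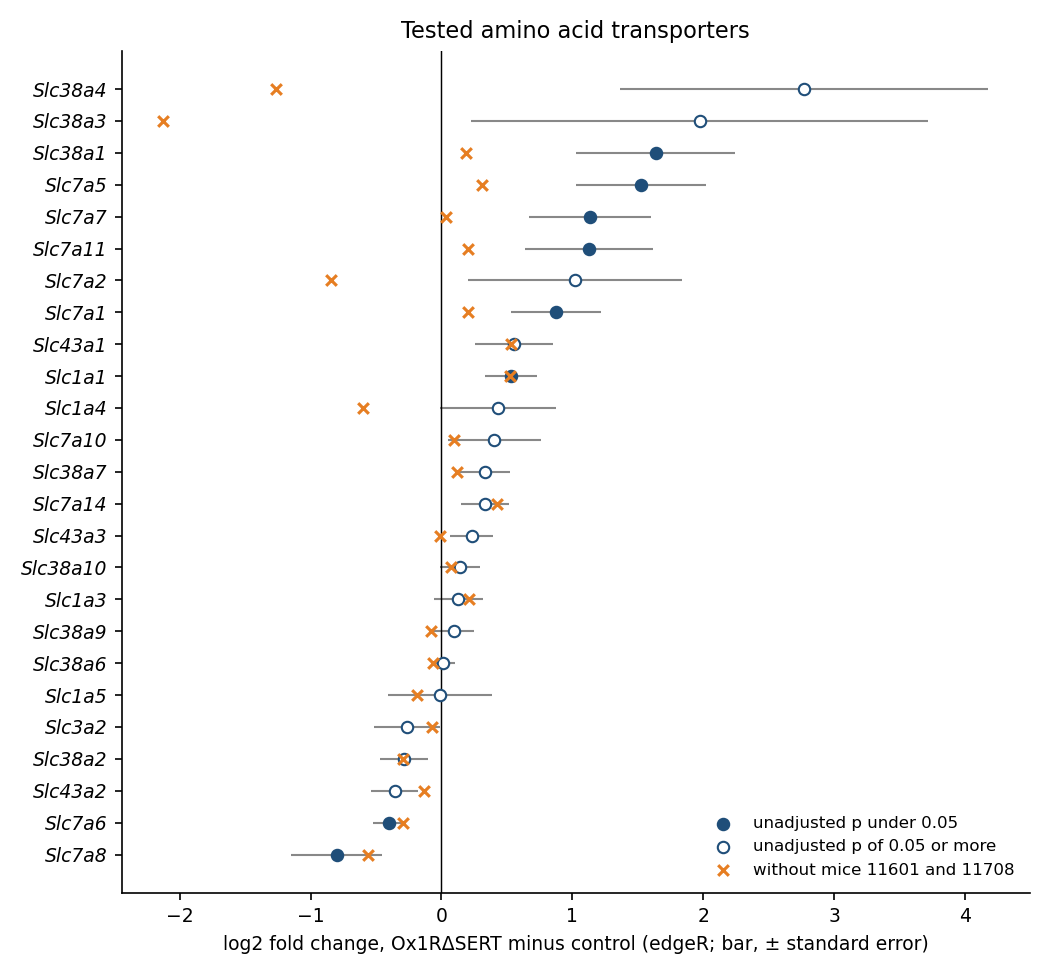
Log2 fold change of the 25 tested members, Ox1RΔSERT minus control, from edgeR with the standard error as bars, and filled points for an unadjusted p under 0.05. Crosses give the fold change without Ox1RΔSERT mice 11601 and 11708, which for *Slc38a1*, *Slc7a5*, *Slc7a7*, *Slc7a11* and *Slc7a1* lies between 0.04 and 0.31.

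Among the excitatory amino acid carriers, which take up glutamate and aspartate with sodium, *Slc1a1* (chromosome 19, 28835049 to 28913960) was higher and *Slc1a3* was not separated between groups. For *Slc1a1*, which also carries cysteine, control mice 10684, 11253, 11560 and 11563 had 3.53, 4.12, 3.52 and 4.83 normalised counts, whereas Ox1RΔSERT mice 11243, 11601, 11613 and 11708 had 5.72, 4.30, 5.72 and 7.40. Mouse 11601 fell inside the control range and the other 3 Ox1RΔSERT mice lay above it. The log2 fold change was 0.53 (SE 0.20, unadjusted p = 0.024, adjusted p = 0.316 in edgeR), and the exact permutation test over the 70 assignments of mice gave a two-sided p of 0.0571. Without mice 11601 and 11708 the fold change was 0.52, and on the TPM scale the groups did not overlap (0.788 to 1.13 in control and 1.23 to 2.33 in Ox1RΔSERT mice). The median of all tested genes was shifted upward on that scale, and their share without overlap was not counted there. *Slc1a1* no longer passed the unadjusted threshold without 1 of mice 10684, 11253, 11560, 11243 and 11708 (log2 fold change 0.39 to 0.53). Exons of *Slc1a1* share 2631 bases with *4430402I18Rik* on the opposite strand, and since use of the strand in counting was not stated, part of its counts is uncertain. *Slc1a3*, the more abundant carrier, had 44.7 to 80.7 normalised counts in control mice and 55.9 to 80.4 in Ox1RΔSERT mice, with a log2 fold change of 0.13 (SE 0.19).

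Of the 2 carriers that exchange small neutral amino acids with sodium, neither passed the unadjusted threshold. *Slc1a5* (chromosome 7, 16781340 to 16798274), which brings glutamine into cells, had normalised counts of 434, 163, 139 and 111 in control mice, in the order of mouse numbers given above, and of 198, 224, 174 and 246 in Ox1RΔSERT mice. Control mouse 10684 was the highest of all 8, while the other 3 control mice lay below every Ox1RΔSERT mouse. This gave a log2 fold change of -0.01 (SE 0.40, adjusted p = 0.995 in edgeR), with an exact permutation p of 1. It was 0.61 without mouse 10684, and its sign also turned under other scalings and without mouse 11613. *Slc1a4*, which prefers alanine and serine, ranged from 0.919 to 1.51 in control mice and from 0.718 to 2.86 in Ox1RΔSERT mice, its log2 fold change being 0.43 (SE 0.45) and, without mice 11601 and 11708, -0.60.

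The heavy chain *Slc3a2* (chromosome 19, 8706882 to 8723369) anchors the light chains of the Slc7 family at the membrane. It measured 63.4, 97.2, 88.5 and 124 normalised counts in control mice and 64.6, 58.3, 113 and 75.3 in Ox1RΔSERT mice. The groups overlapped throughout, and the log2 fold change was -0.26 (SE 0.25). It turned to 0.06 on the TPM scale, where the median of all tested genes was also shifted upward, as given above. *Slc3a1*, the heavy chain of kidney and gut, was not tested and reached 0.926 normalised counts in mouse 11708 against 0.0655 to 0.273 in the other 7.

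Of the 10 light chains, 6 were tested, and 5 of these passed an unadjusted p under 0.05, *Slc7a5*, *Slc7a7* and *Slc7a11* higher and *Slc7a6* and *Slc7a8* lower, where 10.2% and 4.96% of all tested genes did so. *Slc7a6* (chromosome 8, 106168857 to 106198706), which exchanges cationic against neutral amino acids, was the most abundant light chain in every mouse. It had 81.0, 79.5, 90.0 and 92.6 normalised counts in control mice and 66.3, 68.8, 73.3 and 51.7 in Ox1RΔSERT mice, so that every Ox1RΔSERT mouse lay below every control mouse. The log2 fold change was -0.40 (SE 0.12, adjusted p = 0.316 in edgeR and 0.112 in DESeq2), and the exact permutation p of 0.0286 is the smallest that 4 against 4 mice allow. The fold change was -0.29 without mice 11601 and 11708. The separation depended on the scaling, since on the TPM scale the values were 18.3, 15.5, 19.4 and 20.8 against 13.9, 21.5, 20.6 and 15.6, which overlap, with a log2 fold change of -0.06. TMM factors were 0.88 to 0.968 in control mice and 0.915 to 1.19 in Ox1RΔSERT mice. With scaling by library size alone the *Slc7a6* fold change was -0.19. Under these scalings the median of all tested genes was itself shifted upward. It was 0.23 with log2(TPM + 1), 0.32 with log2(TPM + 0.1) and 0.22 with library size alone, and *Slc7a6* stayed below it. The summed normalised counts of the brown adipocyte markers were also lower in Ox1RΔSERT mice, with a mixed direction on the TPM scale, as given above. The part of these markers in the results for *Slc7a6* and *Slc7a8* was not tested.

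*Slc7a8* (chromosome 14, 54722209 to 54781946), an exchanger of large and small neutral amino acids, had 41.2, 42.3, 21.8 and 15.7 normalised counts in control mice and 15.2, 12.8, 25.5 and 16.0 in Ox1RΔSERT mice. Control mice 10684 and 11253 were the highest, and the other 2 control mice lay within the Ox1RΔSERT range. Its log2 fold change was -0.80 (SE 0.35, unadjusted p = 0.0467, adjusted p = 0.327 in edgeR), with an exact permutation p of 0.2. On the TPM scales with pseudocounts 1 and 0.1, where the median of all tested genes was shifted upward, it was -0.33 and -0.38. *Slc7a8* no longer passed the unadjusted threshold on these scales, in limma-voom (-0.72), with library size alone (-0.58), without mice 11601 and 11708 together (-0.56), or without 1 of mice 10684, 11253, 11243, 11601 and 11708 (-0.76 to -0.61).

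*Slc7a5* (chromosome 8, 121881150 to 121907694), the main importer of leucine and other large neutral amino acids in growing cells, had 1.41, 0.919, 1.11 and 0.820 normalised counts in control mice and 1.33, 5.50, 1.30 and 4.11 in Ox1RΔSERT mice. Mice 11601 and 11708 lay far above the other 6, and the other 2 Ox1RΔSERT mice lay inside the control range. The log2 fold change was 1.52 (SE 0.50, adjusted p = 0.316 in edgeR and 0.0732 in DESeq2) with an exact permutation p of 0.0857, and it was 0.31 without these 2 mice. *Slc7a7* (chromosome 14, 54369442 to 54417780), which exports arginine and lysine in exchange for neutral amino acids, had 1.31, 1.11, 0.858 and 1.16 in control mice and 0.939, 4.36, 1.32 and 3.11 in Ox1RΔSERT mice. The same 2 mice were high, the log2 fold change of 1.14 (SE 0.46) became 0.04 without them, and 232 exon bases are shared with *Oxa1l* on the opposite strand. *Slc7a11* (chromosome 3, 49892526 to 50443614), which imports cystine for glutathione in exchange for glutamate and whose promoter is printed above, had 0.471, 0.285, 0.519 and 0.715 in control mice and 0.393, 1.28, 0.763 and 1.95 in Ox1RΔSERT mice. These rest on 9 to 95 counts per mouse. For *Slc7a11* the log2 fold change was 1.13 (SE 0.49, unadjusted p = 0.0479) and 0.20 without mice 11601 and 11708. In these 2 mice the macrophage and hepatocyte markers were also highest, as given above. The summed normalised counts of the brown adipocyte markers were lowest in them. On the TPM scale *Fabp4* was at 8158 and 6764 in mice 11601 and 11708, against 6887 to 8361 in control mice. *Ucp1* was at 1964 and 1893 TPM, against 1863 to 2638. On this scale the median of all tested genes was shifted upward in Ox1RΔSERT mice, as given above. The part of these markers in the 3 results was not tested.

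*Slc7a10*, which exchanges small neutral amino acids such as serine and glycine and is used as a surface marker of white adipocytes, had 5.10, 5.45, 2.69 and 4.39 normalised counts in control mice and 2.86, 4.85, 6.49 and 9.11 in Ox1RΔSERT mice. The groups overlapped, and the log2 fold change was 0.40 (SE 0.35). The white adipocyte markers, of which *Slc7a10* is one, summed to 29.4 to 125 in control and 51.2 to 164 in Ox1RΔSERT mice, and *Tcf21* among them was at 0 in all. *Lep* made up most of these sums, with 23.0 to 114 in control and 40.4 to 145 in Ox1RΔSERT mice.

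Per length, the light chains together reached 25.7 to 30.7 TPM in control mice and 18.9 to 34.8 TPM in Ox1RΔSERT mice. Divided by the TPM of *Slc3a2*, this gave 0.923 ± 0.319 (SD, n = 4) in control and 0.892 ± 0.224 in Ox1RΔSERT mice, a difference smaller than the spread within either group. *Slc7a6* held 51.1% to 76.3% of the light chain TPM. *Slc7a5* held 0.780% to 1.19% in control mice and 1.23% to 1.72% in mice 11243 and 11613, but 5.73% and 5.05% in mice 11601 and 11708. *Slc7a10* held 22.5% in mouse 11708 and 5.43% to 13.8% in the others.

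**Figure D3:**
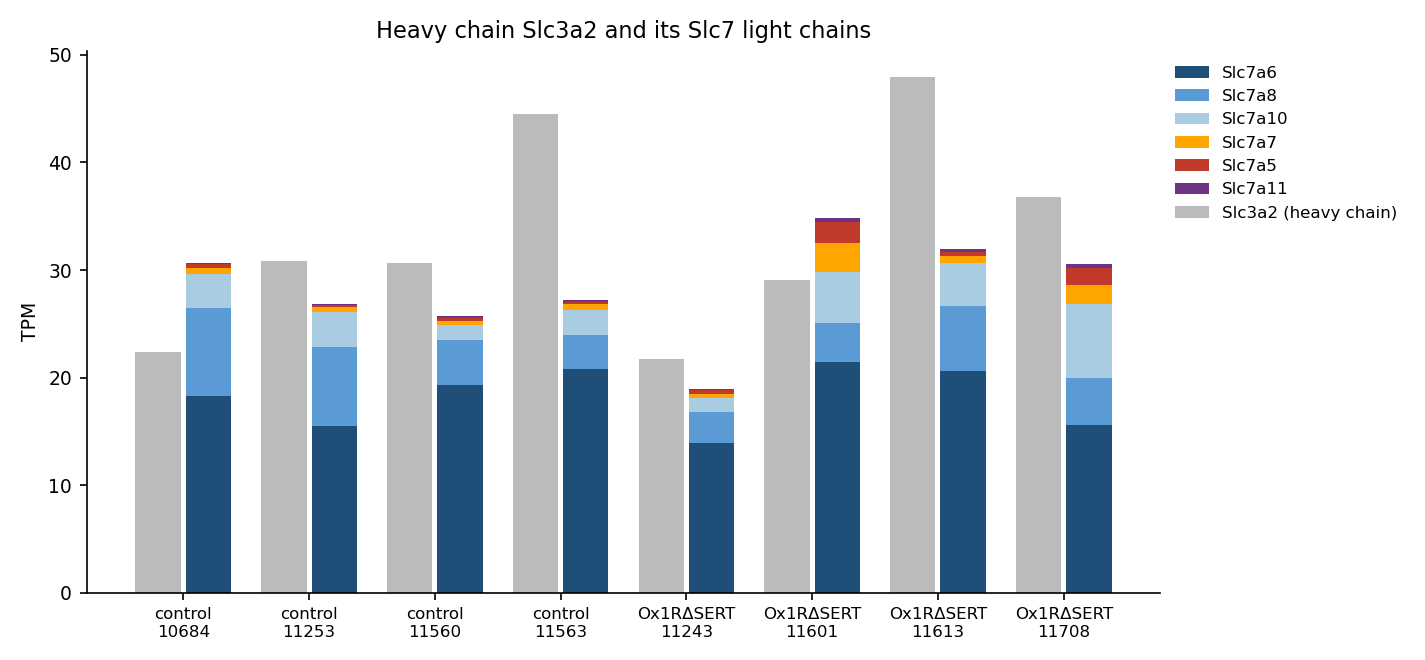
TPM of the heavy chain *Slc3a2* (grey bars) beside the stacked TPM of 6 Slc7 light chains (coloured bars) in each mouse. *Slc7a6* forms most of each stack, and the ratio of light chains to *Slc3a2* runs from 0.613 in control mouse 11563 to 1.37 in control mouse 10684.

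The cationic carriers import arginine, lysine and ornithine without a heavy chain, and 3 of the 5 were tested. *Slc7a1* (chromosome 5, 148327410 to 148399904), the general arginine importer, had 3.03, 5.61, 5.83 and 5.65 normalised counts in control mice and 5.24, 14.0, 6.33 and 11.3 in Ox1RΔSERT mice. Mice 11601 and 11708 were again the highest, control mouse 10684 was the lowest, and the groups overlapped at mouse 11243. The log2 fold change was 0.87 (SE 0.34, unadjusted p = 0.0322, adjusted p = 0.316 in edgeR) with an exact permutation p of 0.114, and it was 0.21 without mice 11601 and 11708. *Slc7a14*, a lysosomal member, was low (0.148 TPM) but varied little, with 1.07 to 1.46 in control and 1.44 to 1.84 in Ox1RΔSERT mice, a log2 fold change of 0.33 (SE 0.18). *Slc7a2* is described with the genes that were highest in single mice.

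System A carriers bring small neutral amino acids, glutamine and alanine among them, into cells with sodium. *Slc38a2* (chromosome 15, 96687392 to 96699730), which is induced when amino acids are scarce, had 117, 140, 200 and 215 normalised counts in control mice and 135, 142, 139 and 134 in Ox1RΔSERT mice. The Ox1RΔSERT values lay within the control range and had an SD of 3.66 (n = 4) against 46.7 in control mice, and the log2 fold change was -0.29 (SE 0.18), or 0.09 on the TPM scale. *Slc38a1* (chromosome 15, 96571418 to 96642913), its less abundant relative, had 0.471, 0.951, 0.339 and 0.610 in control mice and 0.742, 2.60, 0.584 and 3.39 in Ox1RΔSERT mice. Here too mice 11601 and 11708 were above the other 6, and 2 Ox1RΔSERT mice lay in the control range. *Slc38a1* had a log2 fold change of 1.64 (SE 0.61, unadjusted p = 0.0252, adjusted p = 0.316 in edgeR), with 0.18 without these 2 mice.

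**Figure D4:**
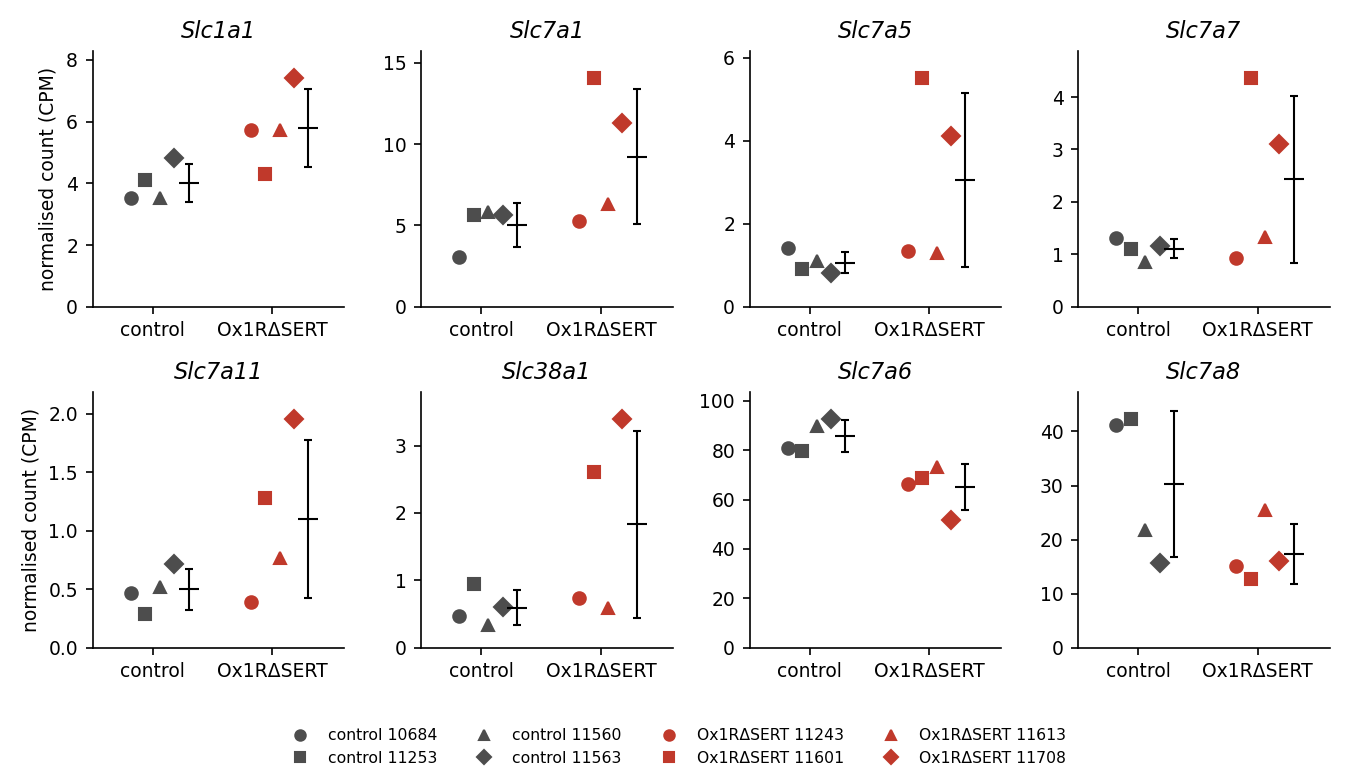
Normalised counts of the 8 members with an unadjusted p under 0.05 in each mouse (points), with the mean and SD of each group (black bars, n = 4). In *Slc7a1*, *Slc7a5*, *Slc7a7*, *Slc7a11* and *Slc38a1* mice 11601 (red square) and 11708 (red diamond) are the highest, and *Slc7a6* is the one panel in which the groups do not overlap.

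Of the 7 tested genes among the other Slc38 members and the Slc43 family, none passed an unadjusted p under 0.05. *Slc38a9*, the arginine sensor of the lysosome that signals to mTORC1, had 7.61, 5.87, 5.96 and 5.99 normalised counts in control mice and 6.18, 6.90, 5.79 and 8.29 in Ox1RΔSERT mice. These overlapped, with a log2 fold change of 0.10 (SE 0.16). *Slc38a7*, a lysosomal glutamine exporter, had a log2 fold change of 0.33 (SE 0.19), and *Slc38a6* varied least, between 15.6 and 18.4 in all 8 mice. *Slc38a10* measured 78.3, 49.2, 51.6 and 50.7 in control mice and 58.7, 65.2, 62.1 and 67.6 in Ox1RΔSERT mice, a log2 fold change of 0.14 (SE 0.15), with mouse 10684 as the highest and the other control mice below all Ox1RΔSERT mice. *Slc43a2*, a uniporter of leucine and other large neutral amino acids, had 55.1 to 76.7 in control and 38.3 to 67.3 in Ox1RΔSERT mice (log2 fold change -0.36, SE 0.18). *Slc43a1*, its close relative, had a log2 fold change of 0.55 (SE 0.30). *Slc43a3*, a carrier of purine nucleobases despite its family, had 33.7, 41.6, 36.2 and 29.2 in control mice and 36.2, 53.0, 33.4 and 42.5 in Ox1RΔSERT mice, which overlapped, with a log2 fold change of 0.23 (SE 0.16).

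Some members with high fitted fold changes, *Slc38a4*, *Slc38a3* and *Slc7a2*, were high mainly in mice 11708, 11253 and 11601 and did not pass the unadjusted threshold. *Slc38a4*, a system A carrier known for its level in liver and muscle, had 0.288, 1.87, 0.248 and 0.0631 normalised counts in control mice and 0.262, 2.72, 0.225 and 13.2 in Ox1RΔSERT mice. *Slc38a3*, a system N carrier that moves glutamine in liver and muscle, had 0.314, 4.69, 0.0677 and 0 in control mice and 0.393, 1.28, 0.157 and 17.6 in Ox1RΔSERT mice. *Slc7a2*, a cationic carrier known from liver, muscle and activated macrophages, had 1.57, 4.25, 1.42 and 1.18 in control mice and 1.07, 2.37, 1.23 and 12.3 in Ox1RΔSERT mice. In all 3 genes mouse 11708 was the highest, and mouse 11253 was the highest control mouse. Their log2 fold changes were 2.77 (SE 1.41), 1.97 (SE 1.74) and 1.02 (SE 0.82), and without mice 11601 and 11708 they turned to -1.26, -2.13 and -0.85. In mice 11708 and 11253 the muscle gene *Ckm* was at 281 and 210, against 0.126 to 23.4 in the other 6. The hepatocyte gene *Alb* was at 554 in mouse 11708 and 25.8 in mouse 11253, against 1.47 to 36.1. The part of muscle or liver RNA in these results was not tested.

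**Figure D5:**
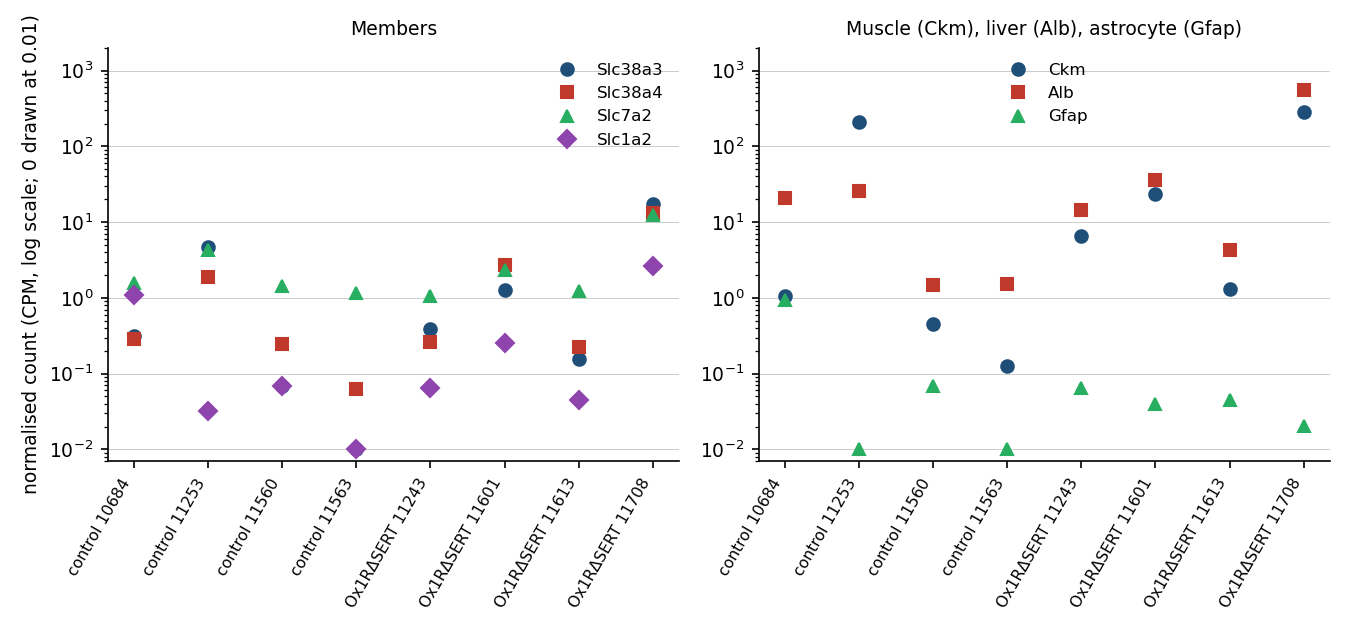
Normalised counts per mouse on a log axis for 4 members (left) and for the muscle gene *Ckm*, the hepatocyte gene *Alb* and the astrocyte gene *Gfap* (right), with 0 drawn at 0.01. *Slc38a3* and *Slc7a2* are high in control mouse 11253 and Ox1RΔSERT mouse 11708, where *Ckm* is 210 and 281.

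Genes that act beside these carriers were counted in the same test. Among the other amino acid transporter families (Slc6, Slc15, Slc16, Slc17, Slc32, Slc36 and lysosomal exporters), 13 of 26 genes were tested, with 2 higher and 1 lower at an unadjusted p under 0.05 and a median log2 fold change of 0.13. *Slc15a3*, a lysosomal carrier of histidine and small peptides, had a log2 fold change of 1.90 (SE 0.59, adjusted p = 0.316 in edgeR and 0.0427 in DESeq2), and 0.56 without mice 11601 and 11708, in which it was highest (5.40 and 6.58 against 0.429 to 1.59 in the others). Its relative *Slc15a4* had 8.94 to 9.89 in control and 11.0 to 13.9 in Ox1RΔSERT mice, with no overlap. The aromatic amino acid carrier *Slc16a10* was lower, with 14.9 to 18.7 in control and 11.6 to 15.4 in Ox1RΔSERT mice.

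Of the 12 tested enzymes of glutamine, glutamate and serine metabolism, 1 was higher and 2 were lower, with a median of 0.10. *Got1*, the cytosolic aspartate aminotransferase, had 41.0 to 69.9 in control and 34.1 to 46.3 in Ox1RΔSERT mice. *Asns*, asparagine synthetase, had 39.6 to 44.6 against 30.6 to 38.2, which did not overlap, and *Aldh18a1*, which makes proline precursors from glutamate, had a log2 fold change of 1.19 (SE 0.44), or 0.12 without mice 11601 and 11708. Among 22 ATF4 target genes outside the transporters, 3 were higher (*Ddit3*, *Aldh18a1* and *Pycr1*) and 1 was lower (*Asns*), with a median of 0.06. The 26 tested genes of amino acid sensing by mTORC1 held 1 higher (*Fnip2*) and 1 lower (*Lamtor5*), with a median of -0.12. None of 10 tested genes of glutathione synthesis passed an unadjusted p under 0.05 in edgeR, and their median was -0.16. These counts stand beside the 10.2% and 4.96% of all tested genes that passed in each direction. In these 5 lists only *Slc15a3* passed an adjusted p of 0.05 in DESeq2, and no gene did in edgeR.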

How the data were processed

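BAT of 8 male mice, 4 per group, was sequenced as stranded poly-A libraries. The authors quantified genes with Salmon 0.14.1 in nf-core/rnaseq 1.4 on GRCm38, their processing notes also name STAR, and they deposited estimated counts per gene and TPM, which is scaled to gene length and to a fixed total per library. Whether Salmon used the strand was not given in the sources used here. Replicates were not pooled, and nothing in the labels gives a batch, litter or pairing.

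After rounding to whole numbers and TMM scaling, all genes kept by filterByExpr were tested with edgeR 4.0.16 (quasi-likelihood, R 4.3.3, Benjamini-Hochberg adjustment, two-sided, threshold 0.05). The code was tested on simulated data. Their spread between mice (dispersion) was set below the common dispersion of these data (0.0988), so that run does not measure power here. Symbols of 44118 of 44674 gene identifiers (98.8%) came from GENCODE. Normalised counts are TMM-scaled CPM, and TPM was used where genes were compared with each other. DESeq2 1.42.0, limma 3.58.1 (voom, and log2(TPM + 1) or log2(TPM + 0.1)), 3 other scalings, 2 other filters and left-out mice were alternatives. The floor was 3 counts per library, which covers counting error only.

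Members given mouse by mouse were those past an adjusted p in edgeR or DESeq2, those whose groups did not overlap, those past an unadjusted p of 0.05, the 6 of highest TPM, and 8 named for their roles, the heavy chains, 3 light chains, *Slc1a5*, *Slc38a2* and *Slc38a9*. *Slc38a3*, *Slc38a4* and *Slc7a2* were added after their values were seen, as were the hepatocyte and astrocyte markers. The members and lists were chosen with earlier results of these data known. Protein identity between members was not analysed here. Members sharing exons with a gene on the other strand were *Slc1a1*, *Slc1a2*, *Slc3a1*, *Slc7a2*, *Slc7a4*, *Slc7a7*, *Slc7a10*, *Slc38a9*, *Slc38a10* and *Slc43a2*.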

Additional observations from a re-analysis of the deposited data

Results flagged for a closer look

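In 9 of the 50 groups of 4 mice examined (25 tested members in each genotype), 1 mouse stood far from the other 3 by Dixon's criterion, where chance alone flags about 1 in 20 groups. Of these, 4 concerned control mouse 10684, 3 control mouse 11253 and 2 Ox1RΔSERT mouse 11708. In mouse 10684, *Slc1a5* was at 434 normalised counts against 111 to 163 in the other control mice, *Slc38a10* at 78.3 against 49.2 to 51.6, *Slc38a9* at 7.61 against 5.87 to 5.99, and *Slc7a1* at 3.03 against 5.61 to 5.83. In mouse 11253, *Slc7a2* was at 4.25 against 1.18 to 1.57, *Slc38a3* at 4.69 against 0 to 0.314, and *Slc38a4* at 1.87 against 0.0631 to 0.288. In mouse 11708, *Slc7a2* was at 12.3 against 1.07 to 2.37 in the other Ox1RΔSERT mice and *Slc38a3* at 17.6 against 0.157 to 1.28.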

How the results depend on the processing

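No member passed an adjusted p of 0.05 in any alternative tried, in edgeR, DESeq2 or limma, and the adjusted p of the members named in the text ran from 0.0732 to 0.999. The counts at an unadjusted p under 0.05 (6 higher, 2 lower) became 2 and 1 in limma-voom, and 10 and 0 with library size alone, and the count of lower members was 0 on both TPM scales. Library size alone and log2(TPM + 0.1) gave a median member fold change of 0.58 and 0.54, where the median of all genes itself shifted to 0.22 and 0.32, and log2(TPM + 1) shifted it to 0.23. Groups did not overlap for 2 higher and 0 lower members with library size alone (*Slc1a1* and *Slc7a14*), and for 3 higher and 0 lower in the deposited TPM (these and *Slc38a6*). The shares of all tested genes without overlap (2.69% higher and 2.81% lower) hold for TMM scaling of all 8 mice. Those at an unadjusted p under 0.05 (10.2% higher and 4.96% lower) hold for edgeR with that scaling. Neither kind of share was counted for other tests, scalings, filters or left-out mice. The member counts under these, here and in the next paragraph, therefore have no background beside them. Without mice 11601 and 11708 together, 1 higher and 1 lower member passed the unadjusted threshold (*Slc1a1* and *Slc7a6*), 2 and 2 did not overlap, and the median was -0.0681.

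With 1 mouse left out, the higher count ran from 1 to 8 (3 without 10684, 2 without 11560, 2 without 11601 and 1 without 11708), and the lower count from 1 to 2 (1 without 11253, 11601 or 11708). Higher members without overlap ran from 0 to 5 (3 without 10684, 1 without 11253, 1 without 11563, 5 without 11243 and 2 without 11601), lower ones from 1 to 2 (2 without 11243), and the median from 0.16 (without 11708) to 0.47.

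The sign of *Slc1a5*, -0.01 as reported, turned to 0.19 in limma-voom, 0.20 with library size alone, 0.000876 with at least 10 counts in every mouse, 0.51 and 0.52 on the TPM scales with pseudocounts 1 and 0.1, 0.61 without mouse 10684 and 0.07 without mouse 11613 (range with 1 mouse left out, -0.24 to 0.61). On the same TPM scales *Slc3a2* turned to 0.0594 and 0.0606, and *Slc38a2* to 0.0909 and 0.0940. *Slc38a9* turned to -0.0144 without mouse 11708 (range -0.0144 to 0.19) and to -0.0817 without both mice 11601 and 11708, where *Slc43a3* was -0.00837. The cause of these changes was not tested. *Slc7a6* stayed negative in all 18 alternatives, between -0.47 and -0.06. No paired analysis was possible because replicate numbers were given in accession order and pair no mice.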

Other observations

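Among the members, 9 had counts but too few to be tested, namely *Slc1a2*, *Slc1a7*, *Slc3a1*, *Slc7a3*, *Slc7a4*, *Slc7a13*, *Slc7a15*, *Slc38a8* and *Slc38a11*. The highest value among them was that of *Slc1a2*, the main glutamate carrier of astrocytes, which is also known from liver, at 2.65 normalised counts in Ox1RΔSERT mouse 11708 (129 counts) and 1.10 in control mouse 10684 (42 counts). In the other 6 mice it lay between 0 and 0.256. The astrocyte gene *Gfap* was at 0.942 and the neuronal gene *Snap25* at 1.23 in mouse 10684, and neither exceeded 0.0677 in another mouse. They are among 6 neuron and astrocyte markers, which did not set mouse 10684 apart in this way. These summed to 2.46 in mouse 10684, 1.67 in 11708, 1.66 in 11601, 1.59 in 11253 and 0.0841 to 0.175 in the rest. In mouse 11708 *Gfap* was at 0.0206, while *Alb* was at 554. The part of RNA from other tissues in these values was not tested. *Slc38a8* had a single count, in mouse 11601.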
